A study of Sus scrofa with 9 samples.

Results

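miR-10a, miR-10b, miR-99a, miR-99b, miR-100, miR-125a and miR-125b were read across MII oocytes, PN embryos and sperm of the pig (Sus scrofa). All entries of the deposited miRNA table whose name, without its species prefix, was one of these 7 miRNAs were taken, whatever the arm or sequence variant. This gave 15 of the 1313 names in the table, carried by 17 of its 1420 rows. Of the 15 names, 9 had the pig prefix (ssc) and 6 the prefix of another species, 9 stood for the 5p arm and 6 for the 3p arm of the precursor. Names without an arm label were read as 5p.

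The study sequenced small RNA from 3 libraries per group, all labelled as untreated. MII oocytes are mature unfertilized eggs. Here they were collected from ovarian follicles of postpubertal gilts at a slaughterhouse, matured in vitro and freed of cumulus cells with hyaluronidase, and the study names the animals Long White pigs. PN embryos are fertilized 1-cell eggs whose parental genomes still lie in separate pronuclei, made by in vitro fertilization and stripped of cumulus cells and surface sperm. Sperm RNA came from purified fresh semen of adult Large White boars, while the semen described for fertilization was of Landrace boars. RNA was taken from large pools of oocytes or embryos. Nothing stated that the libraries of a group came from separate animals or cultures, so p-values measure only the spread between these libraries, which may be technical.

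miRNAs are short RNAs that pair through their seed, the bases 2 to 8 from the 5′ end, with mRNAs and lower their translation or stability. miR-10a and miR-10b are encoded inside the HOX gene clusters and are known for targeting HOX mRNAs. miR-99a, miR-99b and miR-100 share a seed and are known for targeting the kinase mTOR. miR-125a and miR-125b are the vertebrate relatives of lin-4, the first miRNA described, and are known for targeting LIN28, which blocks let-7 maturation. In mammals, genes of the miR-99/100 and miR-125 groups lie together with a let-7 gene in 3 clusters.

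The only member sequences used here were those of the mimics that the study ordered for ssc-miR-125a_R-1 and ssc-miR-125b, the members it tested against circRNA-1572. They are shown because they tell apart what the pair shares and where it differs. Both are given 5′ to 3′ with the seed in capitals.
ssc-miR-125a_R-1: uCCCUGAGacccuuuaaccugu
ssc-miR-125b: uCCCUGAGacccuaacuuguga
Each was 22 bases long. The seed was the same, and the first 13 bases were identical, so that the miRNAs differ only toward the 3′ end.

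In the RefSeq annotation of Sscrofa11.1, the build named in the submitters' processing notes, 7 precursor genes of members were found by symbol. On chromosome 6, MIR125A (58331566 to 58331645) was followed after 396 bases by MIRLET7E, and this after 89 bases by MIR99B (58332211 to 58332280). On chromosome 13, MIR99A (181302483 to 181302562) lay 646 bases before MIRLET7C, both inside the span of the coding gene LOC106508546. On chromosome 9, MIR125B-1 (49109435 to 49109514), MIRLET7A-1 and MIR100 (49157909 to 49157988) lay in a row with gaps of 43071 and 5243 bases, outside coding genes. MIR10A (chromosome 12, 24833644 to 24833723) lay between HOXB3 and HOXB5, and MIR10B (chromosome 15, 81951644 to 81951723) next to HOXD3. miR-125b also has the precursor gene MIR125B-2.

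MII oocyte libraries totalled 289183 to 381674 counts, those of PN embryos 422630 to 771001 and those of sperm 1640492 to 2455102, so depth and group cannot be told apart. Levels are given as CPM, counts per 1000000 counts of the table. Differences are log2 fold changes of edgeR's quasi-likelihood test with TMM scaling, and q is its Benjamini-Hochberg adjusted p-value over all 587 names tested. A name was called where q was under 0.05 and the log2 fold change was 1 or more in size. Marker miRNAs checked the labels. Summed male germ cell markers (miR-34b, miR-34c, miR-449a to c; 4 of 5 listed) were at 151499 to 153743 CPM in sperm, 2036 to 2099 in MII oocytes and 2250 to 2455 in PN embryos. Oocyte and early embryo markers (3 of 8 listed, nearly all miR-371) summed to 1089 to 1286 CPM in the oocyte libraries, 1106 to 1267 CPM in the embryo libraries and 0 in sperm. Stroma and smooth muscle markers (3 of 4 listed, miR-214 at 0) lay at 740 to 954, 457 to 577 and 76.2 to 90.0 CPM in the same order. Blood cell markers (5 of 5) were at 166 to 314, 837 to 875 and 259 to 369 CPM in that order, granulosa and cumulus markers (5 of 5) at 1414 to 1949, 1943 to 2111 and 4350 to 4481, and muscle markers (3 of 4) at 96.8 to 246, 0 and 12.6 to 17.1. The granulosa and cumulus markers did not move as one. Most of their sum in sperm was miR-132 (3250 to 3501 CPM, against 443 to 508 in MII oocytes), while miR-202 was at 10.2 to 23.7 CPM in sperm and 591 to 1142 in MII oocytes, and miR-224 at 0 to 2.88 and 36.8 to 39.3. Nor did the blood cell markers, where miR-451 was highest in PN embryos (483 to 550 CPM) and miR-142 in sperm (91.1 to 93.7 CPM). The muscle sum was miR-1 and miR-133a in MII oocytes. In sperm it was mostly miR-206 (9.78 to 17.1 CPM), which was at 0 in MII oocytes. The part of these cell types in the differences below was not tested. In such pooled samples, more cells of a type and more RNA per cell cannot be told apart.

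Together the 15 names held 4.85% ± 0.152 of the counts in MII oocytes, 5.20% ± 0.0726 in PN embryos and 6.57% ± 0.0891 in sperm (SD, n = 3 each). The libraries of the 3 groups did not overlap in this share, although its make-up differed far more than its size. miR-125a and miR-125b held 45.1% ± 1.47 of the members' counts in MII oocytes and 50.6% ± 0.382 in PN embryos, but 17.9% ± 0.123 in sperm (SD, n = 3 each). miR-99a, miR-99b and miR-100 held 17.6% to 18.1% in the oocyte, 18.7% to 19.2% in the embryo and 37.0% to 38.1% in the sperm libraries. miR-10a with miR-10b held 37.0% ± 1.20, 30.4% ± 0.301 and 44.4% ± 0.513 (SD, n = 3 each) in that order. Because these shares are taken within a library, they do not depend on the scaling between libraries.

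**Figure D1:**
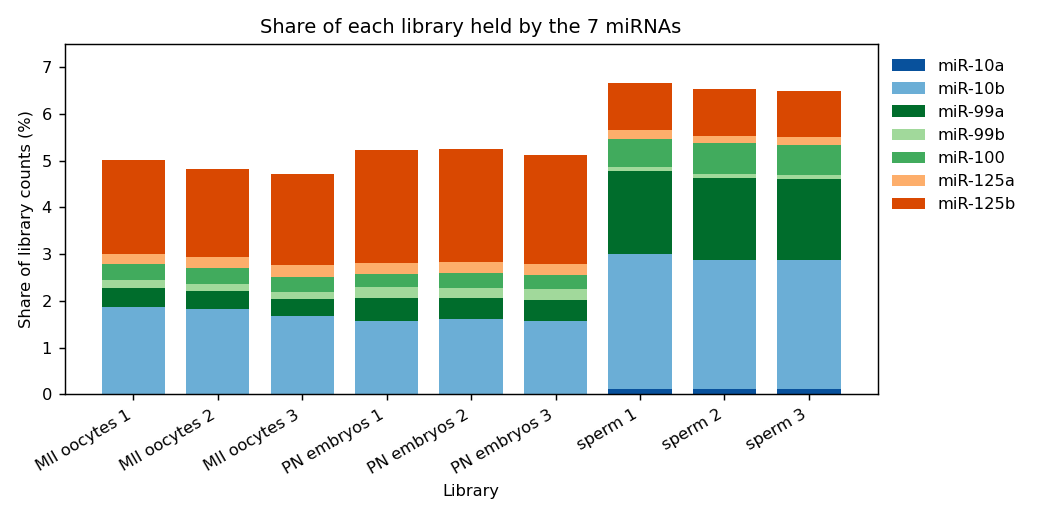
Share of each library's counts (percent, y axis from 0) held by the 7 miRNAs, all arms and variants summed, in the 9 libraries. The stacks end between 4.72% and 5.26% in the oocyte and embryo libraries and between 6.50% and 6.67% in sperm, where miR-99a is wider and miR-125b narrower than in the other groups.

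By level, ssc-miR-125b led the members in MII oocytes and PN embryos, where it ranked 6 and 5 among all names of the table, and ssc-miR-10b came next. In MII oocytes the order went on with ssc-miR-99a-5p_R+1, ssc-miR-100, ssc-miR-125a_R-1, ssc-miR-99b and ssc-miR-10a-5p, and no neighbours in this order overlapped between libraries. PN embryos had the same order except that ssc-miR-99b (2217 ± 67.6 CPM) and ssc-miR-125a_R-1 (2178 ± 74.9 CPM) overlapped (SD, n = 3). In sperm the order became ssc-miR-10b, ssc-miR-99a-5p_R+1, ssc-miR-125b, ssc-miR-100, ssc-miR-10a-5p, ssc-miR-125a_R-1 and ssc-miR-99b, again with no overlap between neighbours. Levels of different miRNAs are read counts of RNAs of similar length, and their efficiency of adapter ligation may differ.

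**Figure D2:**
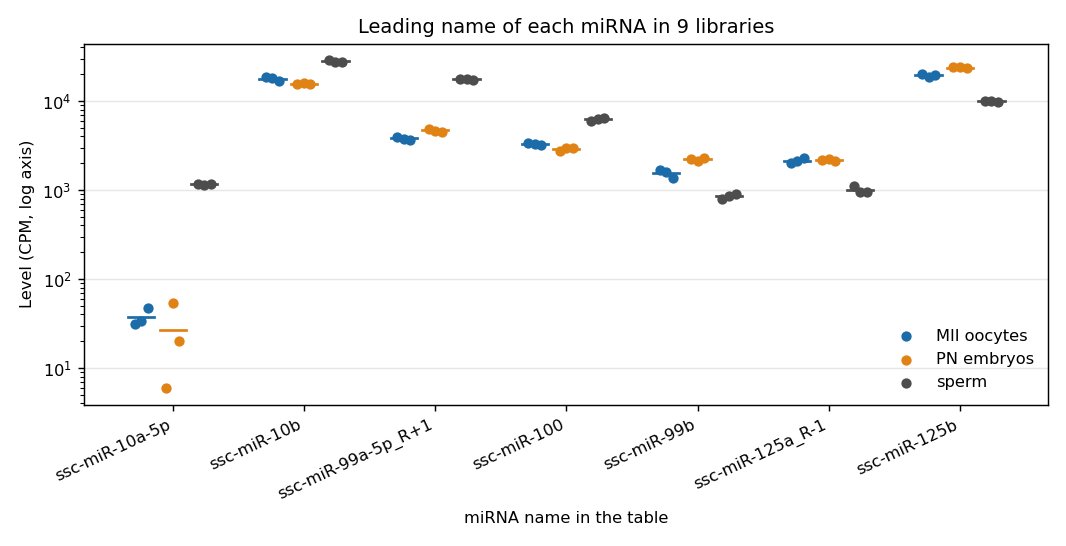
Level (CPM, log axis) of the leading name of each miRNA. Each point is a library, and short lines are means of 3 libraries. miR-10a, miR-10b, miR-99a and miR-100 are highest in sperm, where ssc-miR-10a-5p reaches 1151 to 1178 CPM against at most 53.2 CPM elsewhere, while miR-99b, miR-125a and miR-125b are lowest there.

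Sperm and MII oocytes were compared to see which miRNAs are enriched in either gamete. All 15 names passed the filter on low counts, 9 of them by their level in every group, 3 only by their level in sperm and 1 only by its level in PN embryos. The 3 carried by sperm alone had to be higher there, so that the counts are given as description. Of the 15 names, 9 were called, where 83.0% of all names tested were. Of these, 7 were higher in sperm (42.2% of all names) and 2 lower (40.7% of all names). The members' median log2 fold change was 1.39, against 0 over all names. It includes the 3 names carried by sperm alone, so it is description too. The median over all names ran from -0.58 to 1.14 over the alternatives. Without the fold threshold, 9 names passed q under 0.05 as higher (45.1% of all names) and 4 as lower (43.8%), or 13 in all (88.9%). Libraries did not overlap for 10 higher names (45.0% of all names) and 3 lower names (36.6%), or 13 in all (81.6%).

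In the miR-10 pair, the rarer miRNA differed most. ssc-miR-10a-5p had 12, 10 and 13.5 counts in MII oocyte libraries 1 to 3 (31.4, 33.4 and 46.7 CPM), and 1933, 1995 and 2878 counts in sperm (1178, 1151 and 1172 CPM). All sperm libraries lay far above all oocyte libraries, a 31.4-fold ratio of means, with a log2 fold change of 5.03 ± 0.32 (SE, edgeR q = 1.25e-07). The oocyte libraries held 18531, 18250 and 16680 CPM of ssc-miR-10b and the sperm libraries 28655, 27472 and 27387 CPM. It was higher in sperm by 0.70 ± 0.04 on the log2 scale (SE, edgeR q = 6.38e-08), short of the fold threshold. With all libraries thinned to equal depth the fitted value was 0.07 (edgeR q = 0.265), while the log2 ratio of CPM means was 0.65 against 0.64 without thinning, so that the TMM scaling moved while the share of ssc-miR-10b did not. miR-10a made up 0.210% ± 0.0599 of the 5p reads of the pair in MII oocytes, 0.167% ± 0.151 in PN embryos and 4.03% ± 0.0776 in sperm (SD, n = 3 each). The oocyte and embryo values rest on 2.5 to 37 reads per library and carry wide counting intervals, from 0.0969% to 0.296% (95%, Wilson, counting error only) in MII oocyte library 1 for example. Some of these counts are not whole, and how reads were divided between names was not given in the sources used here, so small miR-10a counts beside an abundant near-identical miRNA are uncertain.

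Of the leading 5p names of the miR-99/100 group, ssc-miR-99a-5p_R+1 was the one called higher in sperm. Its oocyte libraries stood at 3990, 3763 and 3634 CPM and its sperm libraries at 17715, 17539 and 17231 CPM, a 4.61-fold ratio of means and a log2 fold change of 2.26 ± 0.05 (SE, edgeR q = 5.36e-11). For ssc-miR-100, 3385, 3308 and 3223 CPM in the oocyte libraries stood against 5991, 6365 and 6392 CPM in the sperm libraries, 0.98 ± 0.06 higher on the log2 scale (SE, edgeR q = 5.22e-08). This lies just under the fold threshold, and the name was called under 15 of 19 alternatives. ssc-miR-99b went the other way. The oocyte libraries held 1682, 1597 and 1366 CPM and the sperm libraries 795, 858 and 910 CPM, with a log2 fold change of -0.80 ± 0.09 (SE, edgeR q = 1.11e-05), not called. At equal depth it was called at -1.46 (edgeR q = 8.16e-09). Its log2 ratio of CPM means was -0.87 there, against -0.86 without thinning, so that here too the TMM scaling moved. The balance between these relatives shifted. miR-99b was 28.9% ± 1.39 of the 5p reads of miR-99a and miR-99b in MII oocytes, 32.1% ± 1.10 in PN embryos and 4.66% ± 0.362 in sperm (SD, n = 3 each). miR-100 was 46.8% ± 0.731, 38.6% ± 2.13 and 26.7% ± 0.914 of the 5p reads of miR-99a and miR-100 in the same order (SD, n = 3 each), with no overlap among the 3 groups.

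In the miR-125 pair, the main names were lower in sperm. Oocyte libraries held 20054, 18771 and 19417 CPM of ssc-miR-125b and sperm libraries 9915, 9981 and 9819 CPM, with no overlap. Its log2 fold change was -0.91 ± 0.04 (SE, edgeR q = 9.36e-09), not called. At equal depth it was called at -1.56 (edgeR q = 1.59e-11), while the log2 ratio of CPM means was -0.97 with and without thinning. Of ssc-miR-125a_R-1 they held 1996, 2132 and 2310 CPM, against 1100, 940 and 956 CPM for sperm. It was called lower at -1.05 ± 0.08 (SE, edgeR q = 7.03e-07). The call of ssc-miR-125a_R-1 was lost under 14 of 19 alternatives. Over all 19 the values ran from -1.69 at equal depth, still called, to -0.39 with variants summed, with q under 0.05 in all. The other variant of miR-125a moved against it. sha-miR-125a_R+2 stood at 265, 277 and 304 CPM in the oocyte, 279, 249 and 258 CPM in the embryo and 882, 662 and 660 CPM in the sperm libraries. It was called higher in sperm than in MII oocytes at 1.44 ± 0.14 (SE, edgeR q = 3.70e-06), and at equal depth the call was lost at 0.892 (edgeR q = 0.000196). The latter value comes from the same equal-depth fit, whose TMM scaling had moved. The ratio of CPM means at equal depth was not computed for this name. As a share of all miR-125a reads, sha-miR-125a_R+2 held 11.6% ± 0.0976 in MII oocytes, 10.7% ± 0.716 in PN embryos and 42.2% ± 2.00 in sperm (SD, n = 3 each). The lowest sperm library was at 40.8% and the highest of the other libraries at 11.7%. With both variants summed, miR-125a in sperm stood at -0.39 (log2) against MII oocytes (edgeR q = 0.00154), no longer called. What the suffix R+2 stands for was not given in the sources used here. oga-miR-100_R+2, the other 5p member with it, was a small part of miR-100 in every group, at 0.985% ± 0.708, 1.48% ± 0.407 and 1.82% ± 0.196 (SD, n = 3 each), and these shares overlapped between groups. Its level was higher in sperm, at 123, 105 and 119 CPM against 15.7, 23.4 and 58.8 CPM in MII oocytes, with a log2 fold change of 1.94 ± 0.37 (SE, edgeR q = 0.000684). Without MII oocyte library 3, the highest of its group, the value was 2.79, still called.

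**Figure D3:**
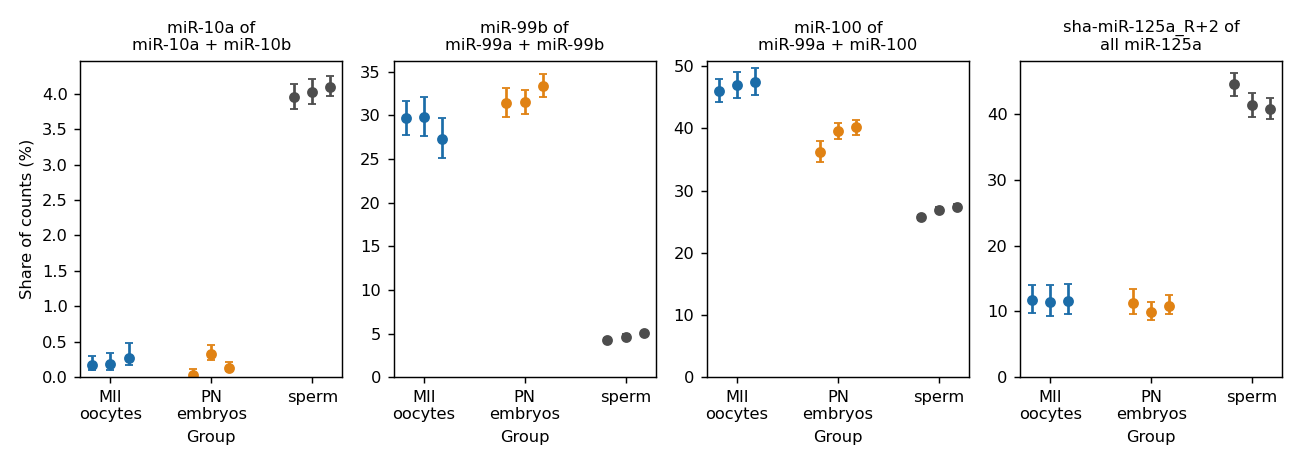
Share of counts (percent, y axes from 0) in each library for 4 comparisons within a library. Points are libraries and bars are 95% Wilson intervals, which cover counting error only. In sperm, miR-10a and sha-miR-125a_R+2 take larger shares (4.03% and 42.2% on average) and miR-99b and miR-100 smaller shares (4.66% and 26.7%) than in either other group.

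Read by genomic cluster, the main names of the chromosome 6 cluster were all lower in sperm at q under 0.05. Its let-7 partner ssc-let-7e averaged 822 ± 181 CPM in oocyte and 516 ± 22.6 CPM in sperm libraries (SD, n = 3). The fitted difference was -0.62 ± 0.12 on the log2 scale (SE, edgeR q = 0.000949), beside -1.05 for ssc-miR-125a_R-1 and -0.80 for ssc-miR-99b. On chromosome 13, ssc-let-7c was higher in sperm, at 1385 ± 3.19 against 486 ± 44.9 CPM (SD, n = 3), by 1.56 ± 0.09 on the log2 scale (SE, edgeR q = 4.69e-08), as was ssc-miR-99a-5p_R+1 at 2.26. On chromosome 9, ssc-miR-100 (0.98) and ssc-let-7a were higher in sperm, the latter by 1.96 ± 0.12 (SE, edgeR q = 9.53e-08) at 48247 ± 1171 against 12907 ± 2791 CPM (SD, n = 3). ssc-miR-125b was lower. In mammals mature miR-125b also comes from MIR125B-2, in the cluster with MIR99A, and let-7a from further loci, and the counts do not tell these sources apart. Of the 3 let-7 partners, 2 were called higher (42.2% of all names) and 0 lower (40.7%). ssc-let-7e passed q alone, where 88.9% of all names passed q at any fold.

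**Figure D4:**
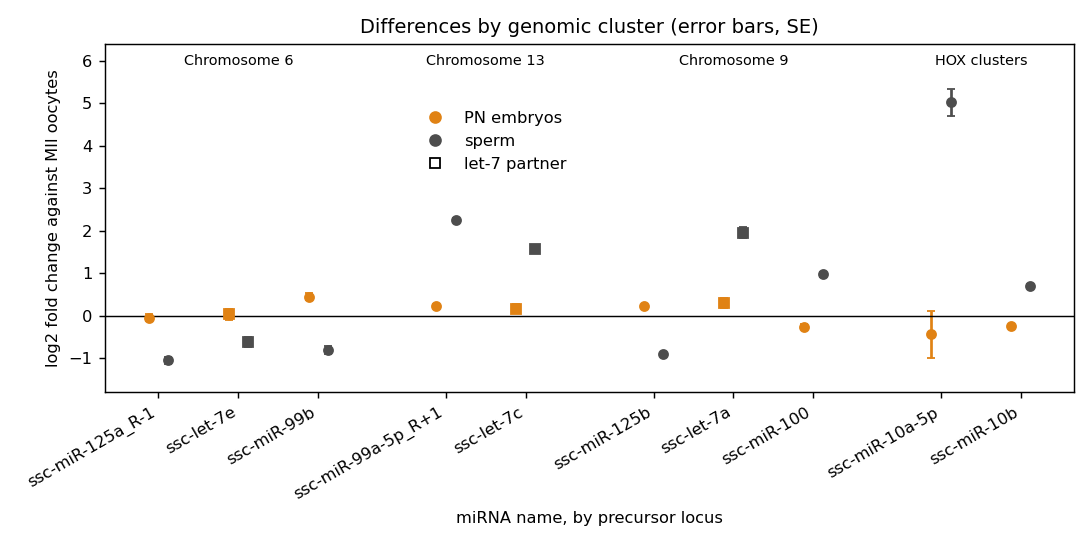
Log2 fold change against MII oocytes (y axis) of the leading member names (circles) and let-7 partners (squares), grouped by precursor locus, for PN embryos (orange) and sperm (grey). Error bars are SE. The 3 names of chromosome 6 lie below 0 in sperm, between -1.05 and -0.62, and those of chromosome 13 above it, at 2.26 and 1.56. ssc-miR-125b is drawn at chromosome 9, one of its sources.

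PN embryos and MII oocytes were compared to see which levels changed after fertilization. No member (0 of 15) was called by edgeR, where 12.9% of all 587 names were, 11.2% as higher and 1.70% as lower, and the DESeq2 Wald test also called 0. Without the fold threshold, 5 members passed edgeR q under 0.05 (25.2% of all names), 3 as higher (16.7%) and 2 as lower (8.52%). Libraries did not overlap for 6 members (39.5% of all names), 4 higher (26.9%) and 2 lower (12.6%). Among the 4 is pal-miR-99b-3p, which passed the filter only by its level in PN embryos. ssc-miR-10a-3p, ocu-miR-125b-3p_R-2 and ssc-miR-99a-3p_R+2 had at most 5 counts in any library of either group. The comparison says little about these names, which stay in the 15 and in the members' median. At an unadjusted p under 0.05 the whole comparison had 209 names. The median log2 fold change was 0.12 for the members and 0.08 for all names.

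The 5 differences were small, and went in opposite directions inside the miR-99/100 group. ssc-miR-99b was at 2250, 2139 and 2261 CPM in PN embryos, above every MII oocyte library, with a log2 fold change of 0.45 ± 0.09 (SE, edgeR q = 0.00408), and its q stayed under 0.05 under all 19 alternatives. ssc-miR-99a-5p_R+1, at 4905, 4643 and 4510 CPM, was 0.23 ± 0.05 higher (SE, edgeR q = 0.00947), and ssc-miR-125b, at 24040, 24148 and 23239 CPM, 0.22 ± 0.04 higher (SE, edgeR q = 0.00302). The q of both passed 0.05 without PN embryo library 2 (0.108 and 0.161) or 3 (0.0626 and 0.0503). ssc-miR-10b, at 15577, 15896 and 15544 CPM, was lower, at -0.25 ± 0.04 on the log2 scale (SE, edgeR q = 0.00150), and ssc-miR-100, at 2745, 2997 and 2969 CPM, at -0.26 ± 0.06 (SE, edgeR q = 0.00834). The q of ssc-miR-10b and ssc-miR-100 rose to 0.837 and 0.905 when names with identical counts were collapsed, to 0.647 and 0.697 without MII oocyte library 1 and to 0.0737 and 0.121 without PN embryo library 2, and for ssc-miR-100 to 0.0599 without PN embryo library 3. With identical names collapsed and without MII oocyte library 1, the median of all names rose from 0.08 to 0.28 and 0.27. ssc-miR-99b then stood at 0.654 and 0.643, so that differences this small depend on the scaling. For the remaining 5p names the difference was not resolved. The 95% interval of the log2 fold change was -0.23 to 0.14 for ssc-miR-125a_R-1, -0.52 to 0.17 for sha-miR-125a_R+2, -0.54 to 1.39 for oga-miR-100_R+2 and -1.68 to 0.81 for ssc-miR-10a-5p, which had 2.5, 37 and 15.5 counts in PN embryos.

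**Figure D5:**
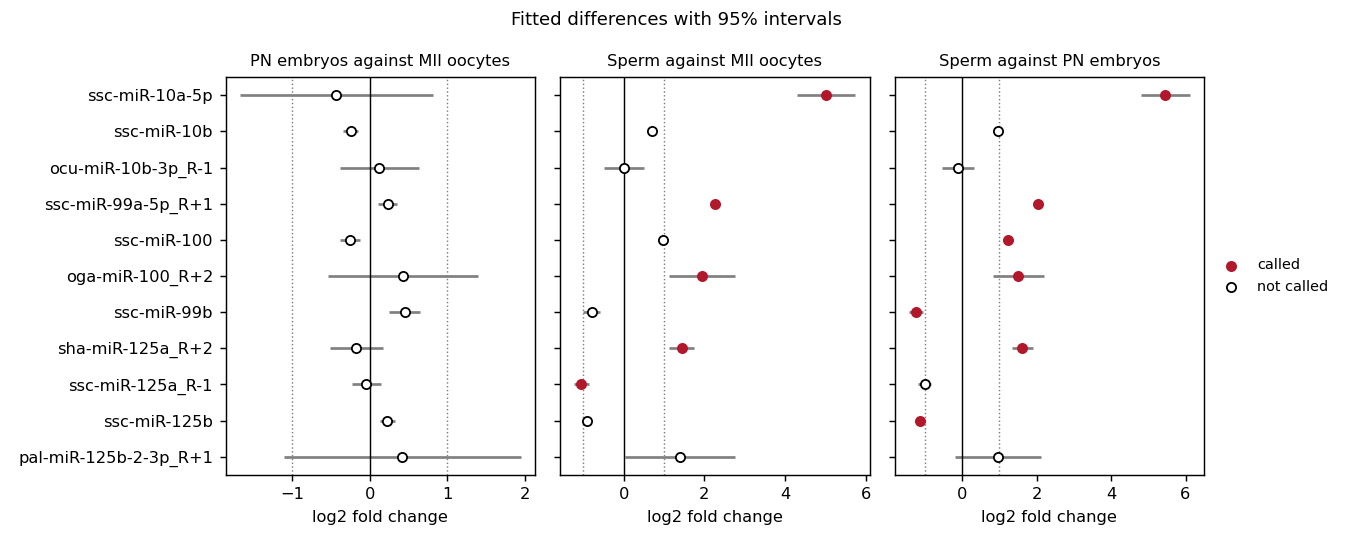
Fitted log2 fold change (x axes) of the 11 member names listed in at least 8 of 9 libraries, in 3 comparisons, with 95% intervals from the edgeR fit. Filled points were called, and dotted lines mark the fold threshold of 1. Points of PN embryos against MII oocytes lie between -0.44 and 0.45, those of sperm against MII oocytes between -1.05 and 5.03.

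Sperm and PN embryos share the sperm libraries with the comparison above, so the values are given side by side and not as further support. Of the 15 names, 11 were called (86.2% of all names), 8 as higher (38.8%) and 3 as lower (47.4%) in sperm than in PN embryos. The 3 names that passed the filter only in sperm and the 1 only in PN embryos had to differ here. The counts and the members' median in this comparison are therefore description. At q under 0.05 alone 13 passed (92.2%), 9 as higher (42.6%) and 4 as lower (49.6%). Libraries did not overlap for 14 (92.2%), 10 higher (43.1%) and 4 lower (49.1%). The median log2 fold change was 1.23 for the members and -0.52 for all names, the latter running from -1.23 to 0.67 over the alternatives. ssc-miR-10a-5p was 5.46 ± 0.29 higher on the log2 scale (edgeR q = 2.92e-08), or 6.42 without PN embryo library 2, ssc-miR-99a-5p_R+1 2.03 ± 0.05 (q = 8.50e-11), ssc-miR-100 1.23 ± 0.06 (q = 6.43e-09) and sha-miR-125a_R+2 1.62 ± 0.13 (q = 6.54e-07, SE throughout). ssc-miR-99b, at -1.24 ± 0.08 (SE, edgeR q = 1.90e-07), and ssc-miR-125b, at -1.14 ± 0.04 (SE, edgeR q = 1.33e-09), were called lower. ssc-miR-10b, at 0.96 ± 0.04, and ssc-miR-125a_R-1, lower by just under 1, were not called (SE, edgeR q = 4.80e-09 and 7.28e-07). At equal depth ssc-miR-125a_R-1 was called at -1.61 (edgeR q = 1.46e-08). Its log2 ratio of CPM means was -1.13 there, against -1.12 without thinning. The calls of ssc-miR-125b and ssc-miR-10b changed under 9 and 13 of 19 alternatives, those of ssc-miR-100 and ssc-miR-99b under 1 each, at equal depth (0.615) and without sperm library 1 (-0.958). For ssc-miR-100 the log2 ratio of CPM means was 1.09 at equal depth and 1.11 without thinning.

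The 3p arms were rare, at 0.293% ± 0.158, 0.394% ± 0.0809 and 0.459% ± 0.0325 of member counts in oocyte, embryo and sperm libraries (SD, n = 3 each). ssc-miR-10a-3p (32, 36 and 62 counts in sperm), ocu-miR-125b-3p_R-2 (28, 42 and 52) and ssc-miR-99a-3p_R+2 (106, 91 and 168) had 0 in each MII oocyte library. The first pair also had 0 in each PN embryo library, where ssc-miR-99a-3p_R+2 had 5, 0 and 0 counts. A listed 0 can stand for up to about 5 reads per library, and against this floor ssc-miR-10a-3p was at least 1.39-fold, ocu-miR-125b-3p_R-2 at least 1.33-fold and ssc-miR-99a-3p_R+2 at least 3.94-fold above MII oocytes in sperm. These names passed the filter on low counts only by their level in sperm, so their values are a description with no test. pal-miR-99b-3p had the opposite pattern, with 9, 14 and 30 counts in PN embryos, 6, 0 and 0 in MII oocytes and 0 in sperm. It was at least 10.1-fold lower in sperm than in PN embryos, a description too, since it passed the filter only by its level in PN embryos. Its call as lower in sperm than in MII oocytes (edgeR q = 0.0130) rests on 6 reads of MII oocyte library 1. Without that library both groups are at 0, and a fit with replicate number as block gave q = 0.0639. ocu-miR-10b-3p_R-1 did not follow its 5p arm. It stood at 126, 66.8 and 114 CPM in the oocyte, 133, 105 and 119 CPM in the embryo and 104, 87.7 and 106 CPM in the sperm libraries, with log2 fold changes in sperm of 0.00 ± 0.22 against MII oocytes and -0.12 ± 0.19 against PN embryos (SE, edgeR q = 1.00 and 0.563), whose signs depended on the scaling. The 3p share of miR-10b was 0.573% ± 0.180, 0.754% ± 0.0939 and 0.355% ± 0.0346 in the same order of groups (SD, n = 3 each). MII oocyte library 2, at 0.365% on 20 reads, lay within the sperm range of 0.318% to 0.387%. pal-miR-125b-2-3p_R+1, the 3p arm named for the miR-125b-2 precursor, had 33, 0 and 6 counts in MII oocytes, 28, 23 and 51 in PN embryos and 172, 160 and 237 in sperm. Its log2 fold change in sperm against MII oocytes was 1.39 ± 0.61 (SE, edgeR q = 0.0520), not called, and it was called under 9 of 19 alternatives. Without MII oocyte library 1, which held 33 of the counts, the value was 3.53 (edgeR q = 0.000441). With ocu-miR-125b-3p_R-2 it made up 0.179% ± 0.224 of miR-125b in oocyte, 0.232% ± 0.0824 in embryo and 1.18% ± 0.0303 in sperm libraries (SD, n = 3 each). Sperm libraries did not overlap the others in this sum. It includes a name carried past the filter by sperm alone, so the gap is description. By itself, pal-miR-125b-2-3p_R+1 was at 92.3 to 105 CPM in sperm and at most 86.5 CPM in the other libraries.

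Of 250 other names with a mean of at least 100 CPM, those closest in pattern to the leading member of each group were taken by the root mean square difference of centred log2(CPM + 1) values over the 9 libraries. They were cfa-miR-200c (0.10), ssc-let-7d-3p (0.11) and ssc-miR-185 (0.12) for ssc-miR-10b, and cfa-let-7b (0.08), ssc-miR-92a (0.11) and ssc-miR-92b-3p_R-2 (0.19) for ssc-miR-99a-5p_R+1. For ssc-miR-125b they were eca-miR-26a_1ss10TC (0.11), ssc-miR-1271-5p_R+1 (0.15) and ssc-miR-139-5p_R+1 (0.16). The 9 libraries fall into 3 groups, so that such a pattern is set mainly by 3 group levels.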

How the data were processed

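Small RNA was ligated to adapters at both ends, reverse transcribed, amplified by PCR and selected on a gel, per the labels. The authors deposited estimated counts, one per miRNA name and library, marked raw in the file headers and not normalized. Fractions occurred in 19.8% of positive entries. The submitters' processing notes name Sscrofa11.1. The aligner, caller and count filter were not given in the sources used here. No molecular identifiers were described, so PCR copies count as reads. Columns were matched to samples through the library names, and 0 further columns held sample values. Rows of the 105 repeated names were summed, counts were rounded, and edgeR 4.0.16 (R 4.3.3) was fitted to all 9 libraries with group as the factor, TMM and filterByExpr (minimum count of 10). The study's methods name edgeR with the same thresholds. DESeq2 1.42.0 was an alternative, beside other scalings, filters, row definitions, equal depth, left-out libraries and the replicate number as a block. No values equalled 1 (0), 132 were whole numbers from 2 to 4 and 435 equalled 5. The floor is thus not sharp, and a listed 0 was read as up to 5 reads. Replicates differed by more than sampling noise (chi-square per degree of freedom from 2.20 to 12.7) and were kept apart.

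Members and lists were chosen with earlier results of these data known. Named were the leading name of each miRNA and of its opposite arm, other members called in a comparison with a mean of at least 10 CPM, 3 let-7 partners, and 3 names of like pattern per group. ocu-miR-125b-3p_R-2 missed that mean and was named after its values were seen, so that all 15 are named. Library totals and the share of counts set the precision: 3 counts equal 7.86 to 10.4 CPM in MII oocytes, 3.89 to 7.10 in PN embryos and 1.22 to 1.83 in sperm. Intervals cover counting error only. Mature sequences of the other members were not analysed here.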

Additional observations from a re-analysis of the deposited data

How the results depend on the processing

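The count of members called in PN embryos against MII oocytes was 0 and became 5 at q under 0.05 alone. Over the fits that each left out a library it ran from 0 to 2, the 2 being pal-miR-125b-2-3p_R+1 and pal-miR-99b-3p without MII oocyte library 1. The counts for sperm, 9 against MII oocytes and 11 against PN embryos, stayed within 1.5 times under all alternatives. With the replicate number as a block they were 0, 8 and 11. Same-numbered libraries did not deviate together (mean correlations of -0.0422, -0.110 and 0.0171), so the numbers were not taken as pairs. The block changed 1 member's call, that of pal-miR-99b-3p in sperm against MII oocytes. Of 42 fold changes of members, 22 kept direction and call under every alternative run. Over 775 settings, 27 became weaker, 51 stronger and 21 reversed, and the cause was not tested. Minor variants have no value of their own with variants summed.

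Reversed values concerned small differences. In PN embryos against MII oocytes, ssc-miR-125a_R-1 was at 0.023 with library totals alone and 0.158 with identical names collapsed, and ran from -0.0806 to 0.0317 over left-out libraries. sha-miR-125a_R+2 was at 0.0313 with identical names collapsed. ocu-miR-10b-3p_R-1 ran from -0.108 to 0.447 and pal-miR-125b-2-3p_R+1 from -0.132 to 2.46 over left-out libraries. In sperm against MII oocytes, ocu-miR-10b-3p_R-1 was at -0.0563 with library totals and -0.535 at equal depth, and ran from -0.0848 to 0.419 over left-out libraries. Against PN embryos it was at 0.0805 with DESeq2 size factors, 0.0912 without a filter, 0.0121 with at least 10 counts in 3 libraries and 0.079 with the DESeq2 Wald test, and ran from -0.198 to 0.123 over left-out libraries. The median of all names moved by over 0.1 between scalings, from -0.52 with TMM to -0.32 with DESeq2 size factors and -1.03 at equal depth in sperm against PN embryos, and from 0 to 0.12 and -0.58 in sperm against MII oocytes. The filter of at least 10 counts in 3 libraries, which tests other names, gave medians of 0.67 and 1.14, only the 2 groups compared -0.15 and 0.77, and leaving out sperm library 3 -1.23 and -0.13. In PN embryos against MII oocytes the median went from 0.08 to 0.28 with identical names collapsed and to 0.27 without MII oocyte library 1. Over all names, 66 were called higher and 10 lower in PN embryos than in MII oocytes, which became 28 and 10 with variants summed and 44 and 6 with the block. For shares within a library, equal depth and left-out libraries were added after seeing the data. Of 275 such values 3 moved by more than 1 SD, all 3 at equal depth. Leaving out 1 of 3 libraries cannot move their mean by 1 SD, so this rule could not test left-out libraries. Reversal of shares was not examined.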
